A study of Homo sapiens with 2 samples.

Results

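The enzymes of fatty acid synthesis and desaturation were taken as 10 genes, ACLY, ACSS2, ACACA, ACACB, FASN, ELOVL5, ELOVL6, SCD, FADS1 and FADS2. Their members were all array probes that were not control spots on either array and whose RefSeq transcript belongs to 1 of these genes, whatever their signal. This gave 13 probes, 2 each for ACACA, ACACB and ELOVL5 and 1 for each of the other 7 genes, out of 23752 genes and unnamed transcripts that passed the filter on dim probes (well above background on 1 array or both). All 13 probes were well above background on both arrays. The probes were read on 1-colour (Cy3) Agilent arrays of total RNA from HepG2 cells, an established human hepatoma line that keeps many functions of hepatocytes. One culture received HTE, a hawk tea extract, for 24 h, and the control culture received DMSO at 1‰ for the same time. The labels give 200 μg/mL HTE, while the name of the deposited HTE array carries the number 300. The text of the study names the higher of these doses for the arrays, so the label of the samples differs from both. There was 1 array per condition and no replicate, so the values carry no test, p value or standard error, and array, culture and treatment cannot be told apart.

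In the cytosol of hepatocytes, ACLY (ATP citrate lyase) makes acetyl-CoA from citrate that leaves the mitochondria, and ACSS2 (acetyl-CoA synthetase) makes it from acetate. The acetyl-CoA carboxylases turn it into malonyl-CoA. FASN (fatty acid synthase) builds palmitate from both, the elongases of the ELOVL family add carbons to fatty acyl-CoA, and the desaturases SCD, FADS1 and FADS2 put in double bonds. The transcription factors SREBP-1c, ChREBP and the liver X receptors are known to act on many of these genes, whose products feed triglycerides, phospholipids and cholesteryl esters.

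The stretches before the start of transcription are shown for 4 of the genes, because they hold the letters of known factor motifs and because the genes run from the highest ratio between the arrays (ACSS2) over SCD and ELOVL5 to a ratio near 0 (ACACA). The 250 bases before the start come from the RefSeq promoter table (GRCh38.p14), and each stretch lies outside its own gene. Each is given 5′ to 3′ on the strand of the gene, with CCAAT (the NF-Y motif), GGGCGG (Sp1) and CACGTG (an E-box) in capitals wherever they stand on either strand. The stretches are chr20:34874739-34874988 (plus strand) for ACSS2, chr10:100346983-100347232 (plus strand) for SCD, chr6:53348951-53349200 (minus strand) for ELOVL5 and chr17:37406837-37407086 (minus strand) for ACACA.
ACSS2: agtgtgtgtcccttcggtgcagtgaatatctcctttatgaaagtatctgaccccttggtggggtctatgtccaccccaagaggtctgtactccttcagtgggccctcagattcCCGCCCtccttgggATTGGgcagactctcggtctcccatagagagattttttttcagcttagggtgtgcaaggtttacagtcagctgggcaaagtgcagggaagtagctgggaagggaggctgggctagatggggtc
SCD: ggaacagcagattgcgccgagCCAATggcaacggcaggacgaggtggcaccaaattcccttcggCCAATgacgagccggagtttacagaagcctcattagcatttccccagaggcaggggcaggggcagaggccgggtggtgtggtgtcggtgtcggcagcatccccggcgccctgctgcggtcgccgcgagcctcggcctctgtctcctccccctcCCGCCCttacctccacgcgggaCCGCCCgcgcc
ELOVL5: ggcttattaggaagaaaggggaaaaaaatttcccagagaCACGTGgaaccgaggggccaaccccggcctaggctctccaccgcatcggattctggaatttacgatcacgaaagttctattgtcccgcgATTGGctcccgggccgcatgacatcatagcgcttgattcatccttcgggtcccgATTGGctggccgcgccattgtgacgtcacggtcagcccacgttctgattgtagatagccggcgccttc
ACACA: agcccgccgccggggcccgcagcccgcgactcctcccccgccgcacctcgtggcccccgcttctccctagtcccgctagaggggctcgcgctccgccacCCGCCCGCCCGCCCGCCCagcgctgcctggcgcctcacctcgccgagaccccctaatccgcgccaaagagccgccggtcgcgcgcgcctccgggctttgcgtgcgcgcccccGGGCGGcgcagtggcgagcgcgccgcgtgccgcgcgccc

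The table held 15 start sites for 9 of the 10 genes, and FASN was the gene not among them. The ACLY stretches overlap and share copies of CCAAT and GGGCGG, which the counts of stretches below include more than once. The FADS2 stretches overlap without a shared copy. CCAAT stood in 8 of the 15 stretches, of 6 genes, and in 32.0% of all 35116 stretches of that length in the table. GGGCGG stood in 11 of the 15, of 8 genes, and in 42.6% of all. The ELOVL5 stretch was the only member stretch with CACGTG, which 6.34% of all stretches hold. In the ACACA stretch 4 of the 5 GGGCGG copies overlap in 1 run, read on the other strand. Of the stretches shown, the NF-Y motif was missing only from that of ACACA. The other starts of that gene and a start of ACACB (ratio -0.29) hold it. ELOVL6 (0.88), FADS2 (0.52) and FADS1 (0.30) have no copy at any start. The ACSS2 start that is not shown has none either. The motif and the ratio thus did not go together throughout. These matches describe letters and show no binding.

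Of the 10 genes, 8 had a higher signal on the HTE array and 2, ACACA and ACACB, a lower one. Ratios are log2 of the HTE signal over the DMSO signal, each taken relative to the 75th percentile of its array, and a gene with several probes is represented by its brighter one. The share above 0 was 80.0% of the members, against 45.7% of all genes and 49.5% of the genes well above background on both arrays. Their median ratio was 0.48 and that of all genes 0, with 25% of all genes above 0.27. At least 2-fold higher was 1 member, ACSS2, against 5.25% of all genes, and at least 2-fold lower were 0 members, against 3.03% of all genes. A single gene of 10 past the 2-fold line says nothing about the members as a group. At a lower line of 1.5-fold, 4 members (ACSS2, ELOVL6, SCD and ACLY) were higher, against 12.4% of all genes. These directions hold relative to the other genes of the array, because scaling to the E1A spike-in probes left ACSS2 alone above 0 and moved the median of the members to -0.89. In RNA from whole cultures, fewer cells of a type and less RNA per cell cannot be told apart.

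The precision that can be given is that of the arrays, not that of the cultures. Each member probe had 1 spot, so it has no spread of its own. The software's error of each signal gave the member ratios an error of 0.20 to 0.24 on the log2 scale. By that error, 6 genes (ACSS2, ELOVL6, SCD, ACLY, FADS2 and FASN) were higher by over 2 errors, and ACACA differed from 0 by less than 1. Of the 20385 genes with a 1-spot probe well above background on both arrays, 16.8% were higher and 16.1% lower by over 2 errors. Probes elsewhere on the arrays with at least 5 spots had a median SD of the ratio of 0.05, while the 2 probes of a gene differed by a median of 0.22 over 3053 such genes. The 95th percentile of that difference was 0.88. The median ratio of the spots around each member probe lay between -0.07 and 0.15, with the highest at FASN. FASN, at 2.14 errors, was also the closest of the 6 genes to the line of 2 errors. Its ratio was 0.29 after the neighbouring spots were subtracted, so its place among the 6 depends on the setting.

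The ACLY probe had a signal of 20848 on the DMSO array and 28523 on the HTE array. Its log2 ratio was 0.62 (1.54-fold), and 11.4% of all genes had a higher one. ACSS2 went from a signal of 2643 to 9761, and its log2 level from -0.60 to 1.45. Its probe was thus below the 75th percentile of the DMSO array and well above that of the HTE array. The ACSS2 ratio was 2.06 (4.16-fold higher with HTE), and 0.779% of all genes had a higher one. ACSS2 was the one enzyme of the 10 that rose past 2-fold, and its ratio exceeded that of ACLY, the citrate route to the same product, by 1.43 (software error 0.29). The ratio of ACSS2 stayed between 1.88 and 2.13 under every alternative except the E1A scaling, where it was 0.69.

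**Figure D1:**
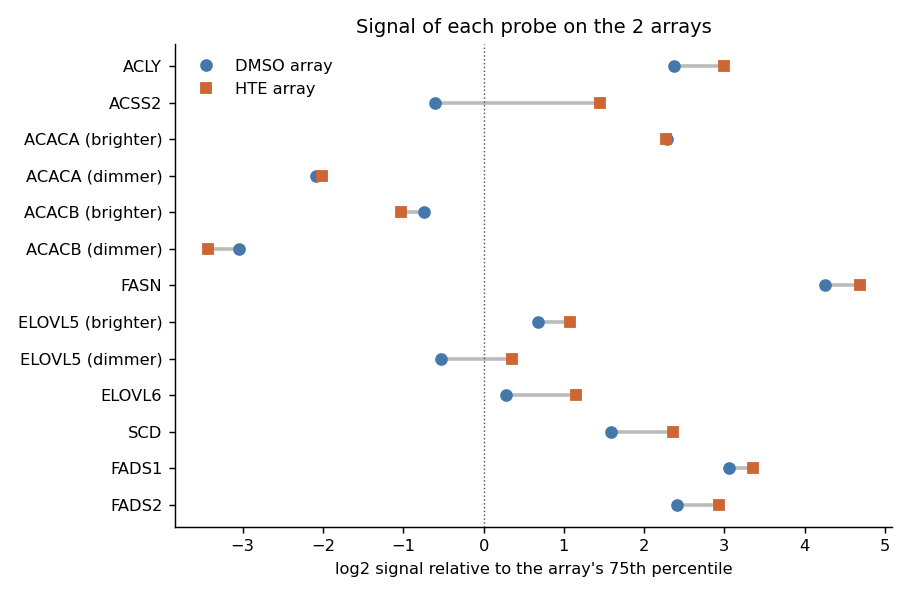
Signal of each of the 13 member probes on the DMSO array (circles) and on the HTE array (squares), as log2 relative to the 75th percentile of that array (dotted line at 0), 1 array per condition, with genes of several probes shown once for each. ACSS2 has the longest line between its points, from -0.60 to 1.45, while the 2 points of the brighter ACACA probe lie together at 2.29 and 2.27. Points compare arrays within a probe, not probes with each other.

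Acetyl-CoA carboxylase was the step without a higher ratio at either of its genes. ACACA encodes the cytosolic enzyme that makes malonyl-CoA for synthesis, and ACACB the one at the mitochondrial outer membrane, whose malonyl-CoA holds back the import of fatty acids for oxidation. The brighter ACACA probe had a signal of 19599 on the DMSO array and 17247 on the HTE array, a ratio of -0.013 after scaling. Its dimmer probe went from 946 to 881, a ratio of 0.069. The sign of ACACA therefore depends on the probe, and both values lie within the software error. The brighter ACACB probe went from 2404 to 1750, a ratio of -0.29 (1.22-fold lower), and the dimmer from 487 to 329, a ratio of -0.39 (1.31-fold lower). Both ACACB probes were lower with HTE, but 75.4% of all genes had a higher ratio than ACACB, so it stood near the 25th percentile of the arrays (-0.28). The 2 probes of each carboxylase differed by 0.08 and 0.10 in size, less than in 77.1% and 71.7% of the genes with 2 probes. ACACA exceeded ACACB by 0.27, less than the error of that difference (0.29).

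FASN, which carries out all steps from malonyl-CoA to palmitate on 1 protein chain, went from a signal of 76421 to 91883. Its log2 level went from 4.25 to 4.69, a ratio of 0.44 (1.35-fold). A higher ratio was seen in 17.1% of all genes. The FASN ratio was between 0.27 and 0.44 under the alternatives other than the E1A scaling, where it was -0.93.

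ELOVL6 extends palmitate to stearate, and ELOVL5 extends polyunsaturated fatty acids. The ELOVL6 probe went from a signal of 4861 to 7933, a ratio of 0.88 (1.84-fold), the second highest of the members. For ELOVL5 the brighter probe went from 6435 to 7546, a ratio of 0.40 (1.32-fold). Its dimmer probe went from 2789 to 4581, a ratio of 0.89 (1.85-fold). Both ELOVL5 probes were higher with HTE and differed from each other by 0.49, a gap exceeded in 19.8% of the genes with 2 probes. By its brighter probe ELOVL5 lay 0.48 below ELOVL6, and by its dimmer probe 0.0091 above it. Which elongase had the higher ratio thus rests on the ELOVL5 probe chosen. 

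SCD introduces the double bond that turns stearate into oleate. Its probe went from a signal of 12041 to 18343, a log2 level from 1.58 to 2.36, and a ratio of 0.78 (1.72-fold). FADS1 and FADS2 are the desaturases of polyunsaturated fatty acid synthesis, FADS2 acting before FADS1. FADS1 went from 33342 to 36486, a ratio of 0.30 (1.23-fold), and FADS2 from 21260 to 27160, a ratio of 0.52 (1.44-fold). All 3 desaturases were higher on the HTE array, by less than 2-fold. The ratio of SCD exceeded that of FADS1 by 0.48 and that of FADS2 by 0.25, and FADS2 exceeded FADS1 by 0.22. Against an error of 0.29 for such a difference, SCD and FADS1 differed by more than 1 error, and the other pairs did not. That error covers the spots alone. A gap of 0.48 also lies below the 95th percentile (0.88) of the difference between 2 probes of the same gene.

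**Figure D2:**
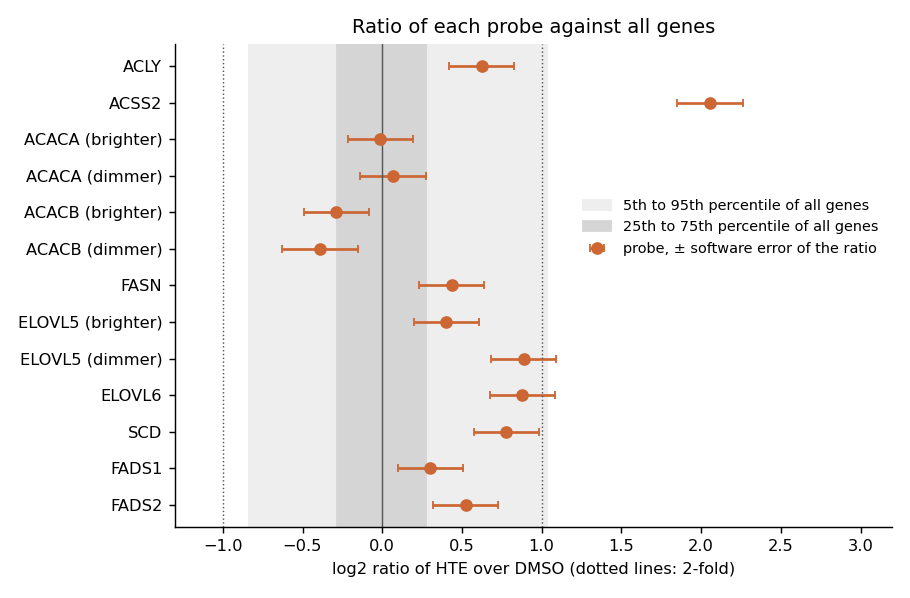
Log2 ratio of HTE over DMSO for each of the 13 member probes, with bars for the software error of the ratio, against the 5th to 95th percentile (-0.83 to 1.03) and the 25th to 75th percentile (-0.28 to 0.27) of all 23752 genes. ACSS2 at 2.06 lies beyond the wider band, 8 more probes lie between 0.30 and 0.89, and the ACACA and ACACB probes lie between -0.39 and 0.07.

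In the order of their ratios the members ran from ACSS2 (2.06) over ELOVL6 (0.88), SCD (0.78), ACLY (0.62), FADS2 (0.52), FASN (0.44), ELOVL5 (0.40) and FADS1 (0.30) to ACACA (-0.013) and ACACB (-0.29). ACSS2 was 1.18 above ELOVL6, over 4 times the error of that difference. FADS1 was 0.31 above ACACA, just past the error of 0.29. No other pair of neighbours in this order differed by more than the software error. Neighbours among the 7 genes from ELOVL6 to FADS1 could thus not be ordered, although genes farther apart in it, such as SCD and FADS1, differed by more than 1 error.

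The other genes of the same enzyme families did not all share the direction of the members. Of the acetyl-CoA synthetases, the mitochondrial ACSS1 had ratios of -0.71 and -0.96 at its probes and ACSS3 had 0.48, against 2.06 for ACSS2. Among the elongases, ELOVL1 (0.62), ELOVL4 (0.78) and ELOVL7 (0.80) had ratios in the range of ELOVL5 and ELOVL6, and ELOVL2 had 0.08. ELOVL3 was the family's gene past 2-fold, 3.28-fold lower (-1.71, but -1.24 with normexp). Its signal was low, with a log2 level of -2.78 on the DMSO array and -4.49 on the HTE array. Of 7 elongases, 6 were above 0, but 5 without scaling or after scaling to the median, and 0 after scaling to the E1A probes. FADS3, a relative of FADS1 and FADS2, was 2.52-fold higher (1.33, or -0.03 under the E1A scaling). SCD5, the other human stearoyl-CoA desaturase, had ratios of -0.00098 and -0.26 at its probes, below the 0.78 of SCD, and FADS6 did not pass background on the DMSO or the HTE array.

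**Figure D3:**
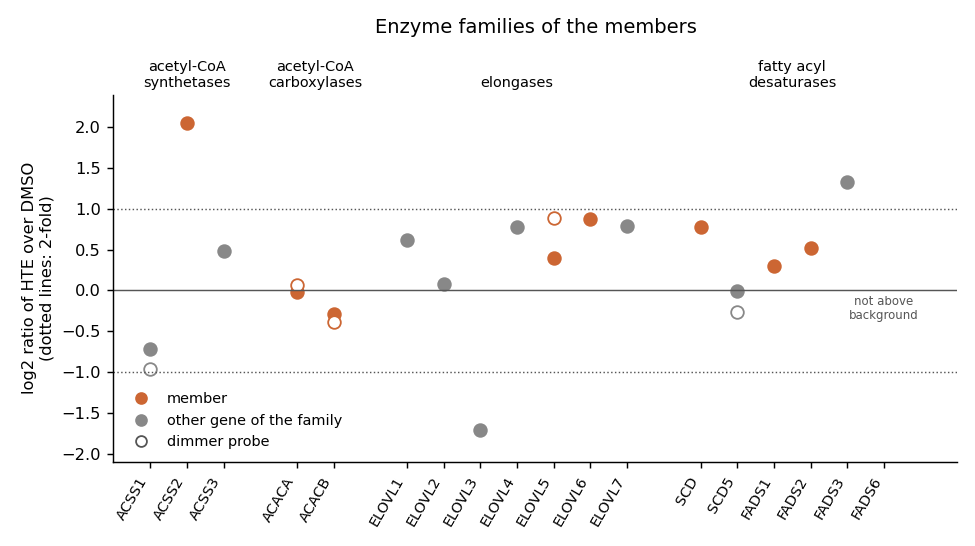
Log2 ratio of HTE over DMSO for all genes of the 4 enzyme families that hold members, with members in orange, other genes in grey and the dimmer probe of a gene as an open circle. ACSS2 (2.06) and FADS3 (1.33) lie above the upper 2-fold line and ELOVL3 (-1.71) below the lower one.

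The pathway around the members was read from 7 lists of other genes, with 60 of 62 genes measured. In the supply of acetyl-CoA, citrate and NADPH, 4 of 9 genes were above 0 with a median of -0.07. ME1 (malic enzyme, a source of NADPH) was the gene past 2-fold (1.07), and ACSS1 was the lowest. ME1 was under 2-fold with normexp (0.91) and every other scaling, from -0.30 with E1A to 0.997 with quantile normalization. Its log2 level on the DMSO array was low, at -4.43. Of 13 regulators of lipogenic genes 10 were above 0, with a median of 0.30. INSIG1, the sterol-sensing retention protein of SCAP and itself an SREBP target, was at 2.20, close to ACSS2 and the highest of these genes. NR1H2 (liver X receptor beta) was well above background on the HTE array only. Against its own dim DMSO signal it was 2.41-fold higher (1.27). That ratio was 0.72 with normexp and 0 with the E1A scaling, so its size is uncertain. The transcription factor genes SREBF2 (0.89), MLXIPL (0.30, encoding ChREBP) and NR1H3 (0.04, liver X receptor alpha) were below 2-fold. SREBF1, which encodes SREBP-1, was at -0.16 at its brighter probe, the lowest of the list, and at 0.97 at its dimmer one.

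For the control of acetyl-CoA carboxylase, 8 of 10 genes were above 0 and 0 past 2-fold, with a median of 0.17. They ran from PRKAB2 (-0.28) to PRKAA2 (0.75), both subunits of AMP-activated protein kinase, which phosphorylates and inhibits the carboxylases. MID1IP1, whose product promotes polymerization of the enzyme, was at 0.70 and its relative THRSP at -0.04. In the elongation cycle 9 of 10 measured genes were above 0 (median 0.25), with ELOVL7 at 0.80 and ELOVL3 at -1.71 at its ends. The other desaturases and electron donors had 3 of 6 above 0 (median 0.09), with CYB5B the lowest at -0.44. Of the 5 long-chain acyl-CoA synthetases 2 were above 0, ACSL1 (0.85) and ACSL5 (0.83), and ACSL3 was the lowest at -0.74 (median -0.14). Mitochondrial fatty acid synthesis, a separate pathway that makes the precursor of lipoic acid, had 4 of 7 above 0 and a median of 0.06, from NDUFAB1 (-0.21) to ACSF3 (0.32). Without scaling, the medians of this list (-0.11), of the other desaturases (-0.08) and of the control of the carboxylase (-0.0022) turned below 0. The median of mitochondrial synthesis also did so after scaling to the median (-0.018), with normexp (-0.025) and after subtraction of the neighbouring spots (-0.0021). After scaling to the E1A probes the medians of all 7 lists were below 0. Those of the acetyl-CoA supply and of the long-chain acyl-CoA synthetases had been below 0 before.

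**Figure D4:**
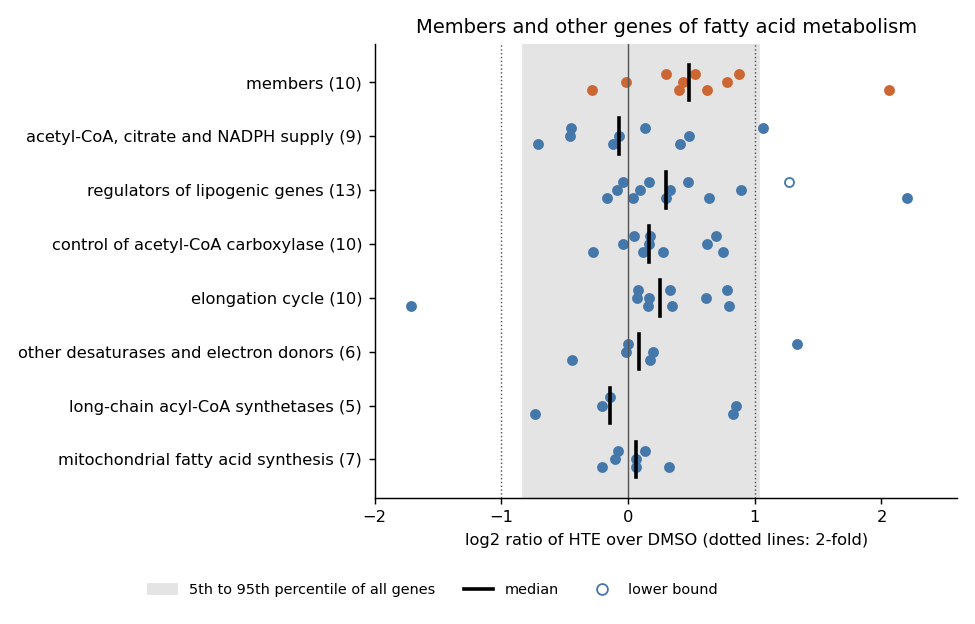
Log2 ratio of HTE over DMSO of each gene in the 10 members and 7 other lists, with the number measured in parentheses, the median of each as a bar and the 5th to 95th percentile of all genes shaded. The members' median (0.48) lies to the right of the other medians, which run from -0.14 to 0.30. The points past the right 2-fold line are ACSS2, ME1, INSIG1, FADS3 and NR1H2, the last drawn as a lower bound but taken against its own dim DMSO signal.

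Of the spots that were not controls, 60.6% (DMSO) and 56.6% (HTE) were well above background, none was saturated, and the 75th percentile of the signal was 4020 and 3570. All 8 markers of HepG2 cells were well above background on both arrays, with ratios from -0.36 (FGB) to 0.21 (SERPINA1). ALB (albumin) had log2 levels of 5.21 and 5.40. Of 8 markers of blood, endothelium and fibroblasts, CD3E, CDH5 and COL1A2 were dim on both arrays, and COL3A1 was well above background with DMSO only. The other 4 ran from PECAM1 (-1.82) over VWF (-0.63) and COL1A1 (-0.63) to PTPRC (0.14, but -0.88 at its dimmer probe). Their part in the member ratios was not tested.

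Taken as a group, the members changed direction with 1 of the scalings. Scaling to the median, quantile normalization, no scaling, normexp background correction and subtraction of the neighbouring spots left 8 or 9 members above 0. The ninth was ACACA, at 0.02 after quantile normalization. Scaling to the 8 E1A spike-in probes lowered every member alike and left only ACSS2 above 0 (0.69), with ACACA at -1.38, ACACB at -1.65 and FADS1 at -1.07 past 2-fold lower. That scaling moved the median of all genes to -1.36, so the median of the members stood above it, and ACACA and ACACB stood below it as they did below 0 before. The spread of the ratios of the E1A probes themselves was wide, from 0.62 to 1.74, but all 8 lay above 0. FADS2, FASN, ELOVL5, FADS1, ACACA and ACACB had main ratios below the lowest of them.

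**Figure D5:**
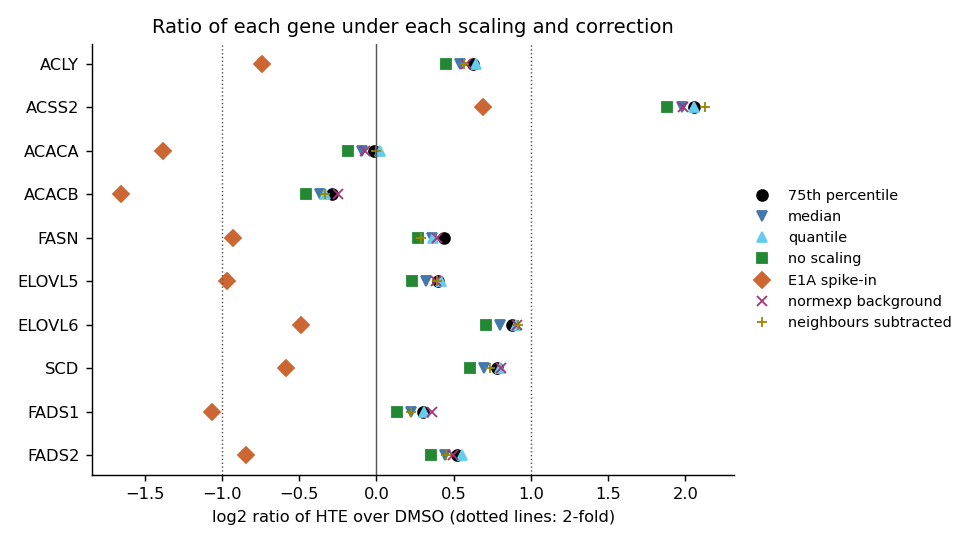
Log2 ratio of HTE over DMSO of each member gene at its brighter probe under 7 settings, 5 of scaling and 2 of correction. The settings other than the E1A scaling lie close together for each gene, with ACSS2 between 1.88 and 2.13, while the E1A scaling moves all 10 genes to the left, to -1.65 at ACACB.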

How the data were processed

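Total RNA of 1 DMSO-treated and 1 HTE-treated HepG2 culture was hybridised to Agilent 1-colour arrays designed on hg19. The authors deposited Feature Extraction output (version 11.5.1.1 per the file headers, 10.7 in the submitters' processing notes). The intensity values used, deposited as processed signals, had been background-subtracted by the software, and were not scaled between arrays. Other values deposited by the authors and used here were the software's flags (well above background, saturated, outlier) and its error of each signal.

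Control and outlier spots were left out, log2 was taken, the 75th percentile of spots that were not controls was subtracted, and the mean over the spots of a probe was used. Probes with a share of at least 0.5 of their spots well above background on 1 array or both were kept. For a probe dim on 1 array, its own signal there or the array's lowest signal well above background, whichever was higher, served as a bound. Bounds under 1-fold were set to 0. Of 50599 probes, 28174 matched a gene of the RefSeq table (GRCh38.p14) by transcript, without version. The main value of a gene is its brightest probe, and 2-fold counted as changed. Precision is limited by having 1 array for each condition.

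The members and lists were chosen with earlier results of these data known. Named genes were all members, the genes past 2-fold and the highest and lowest of each list, the cell line's defining markers, and, chosen after their values were seen, SREBF2, MLXIPL, NR1H3, MID1IP1, THRSP, ACSL5 and the family members. Alternatives covered background (normexp, offset 50, on median signals), scaling, filters on dim probes, outlier spots, neighbouring spots (10 rows and 5 columns each side), choice of probe and fold. One cell type marker and 1 promoter motif are not reported here. The steps were tested on simulated data. Software was Python 3.11.15 (pandas 2.3.3, numpy 2.4.6, matplotlib 3.10.9) and R 4.3.3 (limma 3.58.1).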

Additional observations from a re-analysis of the deposited data

How the results depend on the processing

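The median ratio of the 10 members was 0.48, and 0.40 after scaling to the median, 0.31 without scaling, 0.42 after subtracting the neighbouring spots, 0.57 as the mean over the probes of a gene and 0.57 with the dimmest probe of each gene. It turned to -0.89 after scaling to the E1A spike-in probes, where 1 member was above 0, 0 were at least 2-fold higher and 3 at least 2-fold lower. That scaling subtracts 1 number from all ratios except those of probes dim on 1 array, which are bounds. Whether the spike-ins or the bulk of the genes give the better reference was not tested. With 1.5-fold as the cutoff, 4 members were higher (ACLY, ACSS2, ELOVL6 and SCD), against 12.4% of all genes. Over all 23752 genes 1248 were at least 2-fold higher and 720 lower. These counts were 883 and 1209 without scaling, 115 and 18401 with the E1A scaling, and 825 and 468 with normexp. With the own value of dim probes they were 1341 and 1320. Without a filter on dim probes they were 2297 and 1270 of 41127 genes, and with NM_ probes only 701 and 397 of 14536. Without the filter 5.59% were at least 2-fold higher and with NM_ probes only 4.82%, against 5.25% in the main setting. ACACA changed sign with quantile normalization (0.02), the mean over probes (0.03) and the dimmer probe (0.07). Dim-probe filters, outlier spots and NM_ probes left all 10 members as they were. All member probes were well above background on both arrays, had no outlier flag and carried NM_ transcripts. No paired analysis was possible because each condition has a single array. The arrays give no spread between cultures, so a repeat could differ from these ratios by an amount not known here.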
